A study of Mus musculus with 16 samples.

Results

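The 37 genes encoded on the mouse mitochondrial chromosome were followed through RNA-seq libraries of embryonic stem cells (ESCs) with and without the transcriptional repressor SPEN. They were taken as every gene on chromosome M in GENCODE release M21 (GRCm38), 37 of the 55421 genes in the count files, and comprise 13 protein-coding genes, 2 rRNA genes and 22 tRNA genes. The 16 libraries came from female 129/Sv by Cast/Ei F1 ESCs, in 8 groups of 2 biological replicates. All groups, the wild type (Wt) included, carried a doxycycline-responsive promoter at the endogenous Xist gene on the Cast X chromosome, and in Spen-/- cells the Spen open reading frame had been removed with CRISPR/Cas9. Each genotype was profiled at day 0 without doxycycline, at day 0 after 4 days of doxycycline at 2 µg/mL, at day 3 of monolayer differentiation without the drug, and at day 7 of differentiation in its presence. Cells given doxycycline were also sorted for dsRed, so the effect of the drug and that of the sort cannot be told apart. ESCs were kept on irradiated male mouse fibroblast feeders, which were taken off before differentiation. The sources used here do not say whether the replicates of a genotype came from separate clones, so the p-values below measure the spread between these libraries.

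Mitochondrial DNA is a small circle present in many copies per cell and inherited through the mother. Each of its strands is copied into a long RNA from which the tRNAs are cut out, and their removal frees the mRNAs and rRNAs between them. The mRNAs all encode subunits of the respiratory chain or the ATP synthase, namely complex I (mt-Nd1 to mt-Nd6 and mt-Nd4l), complex III (mt-Cytb), complex IV (mt-Co1 to mt-Co3) and complex V (mt-Atp6 and mt-Atp8). Everything else that mitochondria need, from their RNA polymerase to most respiratory subunits, is encoded in the nucleus. Pieces of mitochondrial DNA have also been inserted into nuclear chromosomes, where they are annotated as pseudogenes.

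Each library had 7571566 to 14822867 reads on genes, and 14969 to 23458 genes had at least 1 read. Spen had 16.2 to 43.5 counts per 1000000 (CPM) in the Wt libraries, after scaling by the trimmed mean of M-values (TMM), and 0.13 to 5.45 in the Spen-/- libraries, without overlap. It was past the threshold at day 7 (log2 fold change -6.22 ± 1.06 (SE), edgeR adjusted p = 0.00416), while edgeR's adjusted p was 0.98, 0.21 and 1 at day 0 without the drug, day 0 with it and day 3. The summed levels of 8 ESC markers, in reads per 1000000 reads on genes (RPM), lay between 3675 and 9418 at day 0 and between 2883 and 3200 at day 3. At day 7 they were 358 and 500 in Wt and 2930 and 2897 in Spen-/- cells. The 10 fibroblast markers summed to 18.1 to 162 RPM, with Lum at 0 in 13 libraries and Col1a1 never at 0. The 4 Y-linked genes, which mark the male feeders, summed to at most 17.1 RPM at day 0 and at most 0.57 RPM at days 3 and 7. Feeder reads on the mitochondrial genes cannot be told apart from those of the ESCs by gene name, and their part in the values below was not tested.

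The sequences of 3 sets of members show what the counts below depend on. Sequences are those of the GENCODE M21 transcripts, printed 5′ to 3′ on the strand of the gene. The first set is a mitochondrial mRNA and its nuclear copy. mt-Co3 (chromosome M, 8607 to 9390, plus strand) encodes a complex IV subunit. Gm28437 is an annotated nuclear gene on the minus strand of chromosome 1, from 24613189 to 24613971. Their 783 aligned bases had 0 differences, and the first 60 bases of both are shown.

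mt-Co3: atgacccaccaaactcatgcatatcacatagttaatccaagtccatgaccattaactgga
Gm28437: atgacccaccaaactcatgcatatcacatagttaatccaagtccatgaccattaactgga

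The second set shows how another copy on chromosome 1 differs from its origin. mt-Co1 (chromosome M, 5328 to 6872, plus strand), the catalytic subunit of complex IV, is matched by Gm29216 (chromosome 1, 24615706 to 24616197, minus strand). All 6 differences in the 492 aligned bases lie in the 60 bases shown, positions 1054 to 1113 of mt-Co1 and 1 to 60 of Gm29216, and capitals mark them.

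mt-Co1: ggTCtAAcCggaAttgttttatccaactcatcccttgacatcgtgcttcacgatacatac
Gm29216: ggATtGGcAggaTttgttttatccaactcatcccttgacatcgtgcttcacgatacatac

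The third set holds 4 tRNAs that fell on opposite sides of the allele split. Every read on mt-Tq and mt-Tt was given to 129/Sv, and no read on mt-Ta and mt-Te was given to either allele.

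mt-Tq: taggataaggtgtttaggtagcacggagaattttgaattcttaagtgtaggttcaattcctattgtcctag
mt-Tt: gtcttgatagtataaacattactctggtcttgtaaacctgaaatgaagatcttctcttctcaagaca
mt-Ta: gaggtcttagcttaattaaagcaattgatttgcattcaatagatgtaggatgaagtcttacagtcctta
mt-Te: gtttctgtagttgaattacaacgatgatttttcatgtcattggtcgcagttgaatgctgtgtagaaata

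These tRNAs lie on chromosome M at 3772 to 3842 (mt-Tq, minus strand), 15289 to 15355 (mt-Tt, plus), 5018 to 5086 (mt-Ta, minus) and 14071 to 14139 (mt-Te, minus). No tRNA gene had a 50-base window in common with an annotated nuclear transcript.

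Most of the reads counted on mitochondrial genes fell on a single mRNA. Over all libraries 2255219 reads fell on the 37 genes, and mt-Cytb, the cytochrome b subunit of complex III, held 53.4% of them. The complex I mRNAs held 18.0%, the rRNAs 17.8%, the complex IV mRNAs 10.5%, the tRNAs 0.21% and the complex V mRNAs 0.028%. Levels between genes were compared per length, as RPM per kilobase of transcript (RPKM). Libraries were primed on poly(A), so these values measure RNA that reached the library. How well rRNAs and single mRNAs were captured was not measured, so the order below is not one of levels in the cells. mt-Cytb had a median of 5216 RPKM over the 16 libraries, 4.56 times that of mt-Rnr2, the large-subunit rRNA, at 1145 RPKM. Then came mt-Nd1 at 1065 RPKM, mt-Co1 at 887, mt-Nd6 at 438, mt-Rnr1 (the small-subunit rRNA) at 310, mt-Nd2 at 273, mt-Nd4 at 242 and mt-Nd5 at 213. This order depends on how length is counted, since part of some genes is repeated in nuclear transcripts and could not be counted by the authors' rule. With only the 50-base windows absent from other annotated transcripts counted as length (RPM per kilobase of such windows), mt-Cytb had a median of 5449, and mt-Co1, at 1876, came before mt-Rnr2 at 1194 and mt-Nd1 at 1123. On that scale mt-Nd4, at 663, lay above mt-Nd6 at 484. In RPKM, mt-Cytb was above mt-Rnr2 in 16 of 16 libraries, mt-Co1 above mt-Nd6 in 16 and mt-Nd6 above mt-Rnr1 in 16. The other neighbours in this order changed places between libraries, with mt-Rnr2 above mt-Nd1 in 12, mt-Nd1 above mt-Co1 in 12, mt-Rnr1 above mt-Nd2 in 11, mt-Nd2 above mt-Nd4 in 7 and mt-Nd4 above mt-Nd5 in 11. mt-Nd6 is the only protein-coding gene on the minus strand. Whether the counting used strand is not stated, so its reads and those of RNA antisense to it cannot be told apart, and the same holds for the tRNAs on that strand.

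**Figure D1:**
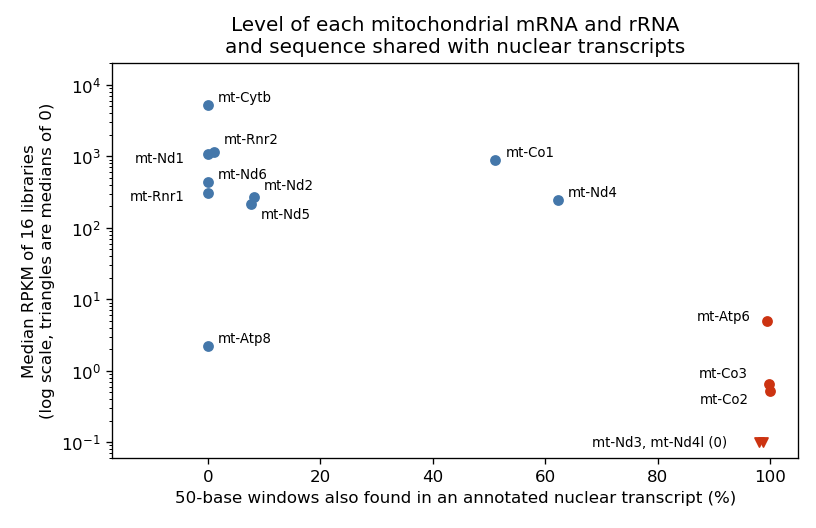
Median RPKM of the 13 mitochondrial mRNAs and 2 rRNAs over 16 libraries (log scale) against the percentage of their 50-base windows that are also present in an annotated nuclear transcript. The 5 genes with more than 90% of their windows copied (red) lie at or below 5.02 RPKM, and mt-Atp8 is as low with no copied window.

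In all, 6 of the protein-coding genes were nearly without reads. mt-Co2 and mt-Co3, both of complex IV, had 76 and 84 reads in all 16 libraries together, mt-Atp6 and mt-Atp8 of the ATP synthase had 540 and 90, and mt-Nd3 and mt-Nd4l of complex I had 2 and 3. These genes are neighbours on chromosome M, from mt-Co2 at 7013 to the end of mt-Nd4l at 10173. The authors counted reads that aligned to a single place, so the share of each gene's sequence that is repeated elsewhere bears on its count. The reads were 50 bases long, and each gene was therefore cut into all of its 50-base windows and these were looked up in the other annotated transcripts. All 635 windows of mt-Co2 were found in a nuclear transcript, as were 734 of 735 in mt-Co3, 629 of 632 in mt-Atp6, 293 of 299 in mt-Nd3 and 245 of 248 in mt-Nd4l. In the other 8 protein-coding genes the copied share was lower. It was 62.2% in mt-Nd4, 51.1% in mt-Co1, 8.19% in mt-Nd2, 7.61% in mt-Nd5 and 0 in mt-Nd1, mt-Nd6, mt-Cytb and mt-Atp8. These 8 genes held 1848250 reads and the other 5 held 705. mt-Atp8 stood apart from both, with 90 reads and none of its 155 windows copied. It lies between mt-Co2 and mt-Atp6, whose copies Gm28661 and Gm10925 are separated on chromosome 1 by 233 bases in which the annotation places no copied gene. The genome sequence of that interval was not used here. A level of these 6 genes in the cells cannot be read from their counts.

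The copies behind these windows were 7 genes in a row on the minus strand of chromosome 1 (24611535 to 24616197, 4.66 kb), a shorter row on chromosome 2, and single genes elsewhere. The 7 keep the order of their mitochondrial counterparts, from Gm29216 (mt-Co1) through Gm28661 (mt-Co2), Gm10925 (mt-Atp6), Gm28437 (mt-Co3), Gm28438 (mt-Nd3) and Gm10222 (mt-Nd4l) to Gm28439 (mt-Nd4). Of these, 5 had 0 differences from the mitochondrial gene over the aligned bases, Gm28438 had 1 in 345 and Gm29216 6 in 492. The row on chromosome 2 (22587291 to 22590533, minus strand) held Gm13339 (mt-Nd2), Gm13340 (mt-Co1) and Gm13341 (mt-Co2), also in mitochondrial order. Gm13340 matched all 1545 bases of mt-Co1 with 37 differences and Gm13339 matched 510 bases of mt-Nd2 with 17. Gm13341 shared 224 windows with mt-Co2. Reads counted on the nuclear copies were few beside those on all 37 mitochondrial genes together, 90923 on all 15 genes with a shared window. Most were on Gm13340 (38698 reads), Gm13339 (19382), Gm29216 (12934) and Gm10925 (7256), followed by Gm4076 (5372), Gm11407 (3556), Gm28437 (1604), Gm28439 (1134), Gm28438 (480) and Gm28661 (340). For the 5 mitochondrial genes with over 90% of their windows copied, the chromosome 1 copy held the more reads. Gm10925 had 7256 beside 540 on mt-Atp6, and Gm28437 had 1604 beside 84 on mt-Co3. Gm28438 had 480 beside 2 on mt-Nd3, Gm28661 340 beside 76 on mt-Co2 and Gm10222 11 beside 3 on mt-Nd4l. Of the 90923 reads, 13 were given to an allele. Whether they came from nuclear or mitochondrial RNA was not tested.

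Of the 22 tRNA genes, 16 had at least 1 read and 6 (mt-Tv, mt-Tw, mt-Ty, mt-Td, mt-Tk and mt-Th) had none in any library. mt-Tp, the proline tRNA next to the control region, led with 1452 reads in all and 42 to 160 per library, followed by mt-Tq (1084 reads, 17 to 205). mt-Tt had 421 reads, mt-Te 416, mt-Tl1 385, mt-Tm 293, mt-Ta 274 and mt-Tc 251. The remaining 8 had 1 to 82 reads each. Mature tRNAs are short and lack a poly(A) tail, and libraries were primed on poly(A), so these counts measure what reached the library and not tRNA levels.

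Reads with an informative variant were almost all of 129/Sv. Of 1389308 allele-specific reads on the 37 genes, 319 were given to Cast/Ei, which is 0.0230%. Per library the Cast share lay between 0.0159% (10 of 62729 reads, 95% Wilson interval 0.00866 to 0.0293%) and 0.0319% (13 of 40804 reads, 0.0186 to 0.0545%), intervals that cover counting error only. On autosomal genes of the same libraries it was 48.1 to 50.9%. All 16 libraries were thus alike in this respect, and the intervals of the lowest and the highest overlapped. The Cast share of Spen-/- cells differed from that of Wt cells by -0.000446 percentage points over the 4 conditions (two-sided exact permutation test within conditions, 1296 assignments, p = 0.827). The sign of that difference was not stable to leaving out a library, with a range of -0.00176 to 0.000864 points.

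The Cast reads were spread over 9 genes. mt-Cytb had 177 of them, mt-Nd4 54, mt-Co1 27, mt-Nd1 25, mt-Rnr2 12, mt-Nd2 8, mt-Nd5 and mt-Nd6 6 each and mt-Rnr1 4. Relative to its 129 reads, mt-Nd4 stood highest of these, with 54 Cast reads beside 36457 of 129/Sv, against 177 beside 886541 for mt-Cytb.

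**Figure D2:**
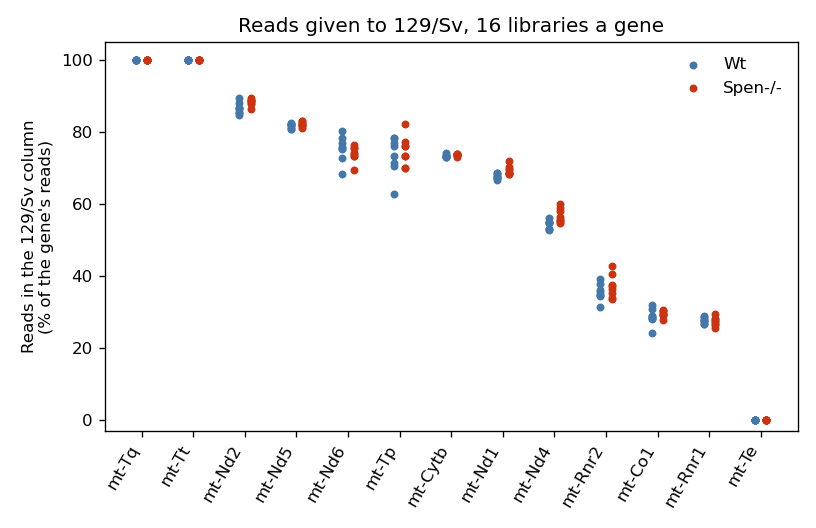
Percentage of a gene's reads placed in the 129/Sv column, 1 point per library, for the 13 members with at least 10 reads in every library (Wt blue, Spen-/- red). Medians run from 100% in mt-Tq and mt-Tt to 0 in mt-Te, and mt-Tp has the widest range across libraries, 62.8 to 82.3%.

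The allele split differed more between genes than between libraries. Between 52.2% and 66.8% of mitochondrial reads per library carried a variant that named an allele, against 12.8 to 13.2% of autosomal reads. In mt-Cytb 73.0 to 74.1% of reads were placed in the 129/Sv column in every library, and in mt-Nd5 81.0 to 83.2%. mt-Nd2 had a median of 87.9%, mt-Nd6 75.5%, mt-Nd1 68.5%, mt-Nd4 55.1%, mt-Rnr2 35.8%, mt-Co1 29.2% and mt-Rnr1 27.6%. The widest range among these 9 was that of mt-Nd6, 68.4 to 80.3%. That of mt-Tp, with 42 to 160 reads per library, was wider still, 62.8 to 82.3%. At the extremes, all 1084 reads of mt-Tq and all 421 of mt-Tt were 129/Sv, while mt-Ta, mt-Te, mt-Tm, mt-Tl1 and mt-Tc had none in either allele column. All reads on mt-Co2, mt-Co3, mt-Atp6, mt-Atp8, mt-Nd3 and mt-Nd4l were unassigned too. In all, 15 of the 31 genes with reads had a 129/Sv read. The positions of the variants on chromosome M were not used here, so these percentages are reported without reference to them.

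The mean share of a library given to mitochondrial genes, mt-Cytb included, was higher in Spen-/- than in Wt cells, most of all at day 7. At day 0 without doxycycline the 37 genes took 0.886 and 1.21% of the reads on genes in Wt cells and 1.18 and 1.35% in Spen-/- cells, and with doxycycline 0.945 and 1.53% against 1.86 and 1.45%. The ranges of the genotypes overlapped in both. At day 3 the shares were 0.696 and 0.613% in Wt and 0.876 and 0.698% in Spen-/- cells, the lowest of the series in either genotype and just without overlap. At day 7 they were 1.72 and 1.58% in Wt against 4.81 and 2.45% in Spen-/- cells, with a large gap between the Spen-/- replicates. Counting error was small beside this spread, since 67080 to 396103 reads stood behind each share.

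**Figure D3:**
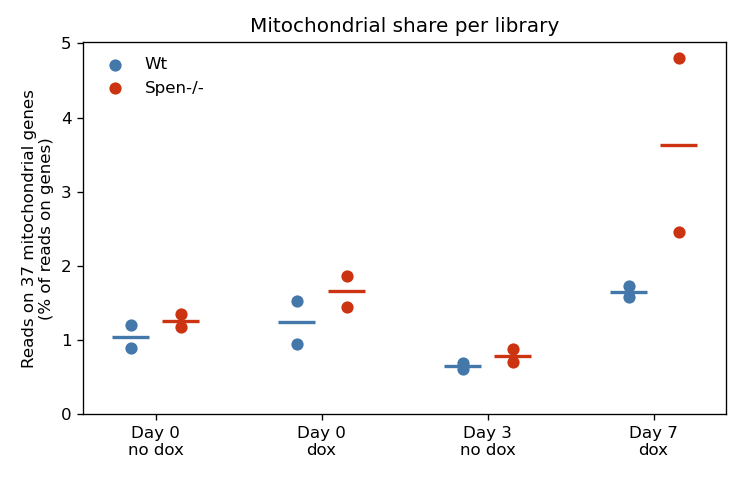
Reads on the 37 mitochondrial genes as a percentage of all reads on genes, for each library (points) and as the mean of 2 replicates (lines), in Wt (blue) and Spen-/- (red) cells. The Spen-/- mean is above the Wt mean in all 4 conditions, and Spen-/- replicate 1 of day 7, at 4.81%, is the highest library.

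The mean share of Spen-/- cells was 1.21 times that of Wt cells at day 0 without doxycycline, 1.34 times with it, 1.20 times at day 3 and 2.199 times at day 7. Averaged over the 4 conditions, the log2 odds of the share were higher by 0.52 in Spen-/- cells, a 1.44-fold difference in odds (two-sided exact permutation test of genotype within conditions, 1296 assignments, p = 0.0108, n = 16 libraries). The smallest p this design allows is 0.00154, and 2 libraries against 2 in 1 condition cannot go below 0.333. The result rested on mt-Cytb and on day 7. Without mt-Cytb in both parts of the share the difference was 0.24 (p = 0.281), and without the day 7 libraries 0.34 (p = 0.0648, exact permutation tests chosen after the values were seen). With each library left out in turn it stayed between 0.40, without Spen-/- day 7 replicate 1, and 0.65, with exact permutation p-values of 0.00463 to 0.0370.

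Other measures of the libraries moved with the genotype. In the day 7 libraries 15324 and 14969 genes were detected in Spen-/- cells against 21015 and 20147 in Wt cells, and reads on no gene made up 44.2 and 35.4% against 32.3 and 31.8% of the reads in the file. Replicate 1 of Spen-/- day 7, which had the highest mitochondrial share, was the library at 44.2%. Among the reads on no gene, those that aligned to several places made up 30.8 and 26.6% of the file in Spen-/- cells against 20.4 and 21.0% in Wt cells. The fibroblast markers summed to 96.4 and 41.2 RPM against 108 and 82.1 RPM, and at most 1 of the 4 Y-linked genes had a read. Markers of cell state differed too. The sum of the ESC markers was higher in Spen-/- cells at day 7, where most of it was Dppa5a. Its group means were 41.8 RPM in Wt and 1865 RPM in Spen-/- cells. Tdgf1 differed little (245 and 282 RPM), and Pou5f1 alone of the 8 went the other way (53.3 and 22.7 RPM). The 8 differentiation markers summed to 3644 and 3616 RPM in Wt and 5968 and 6629 RPM in Spen-/- cells. That sum was mostly the keratins Krt8 and Krt18, with group means of 1336 and 1972 RPM in Wt and 1871 and 4382 RPM in Spen-/- cells. The mesoderm factor T went the other way, with a mean of 212 RPM in Wt and no read in Spen-/- cells, as did the endoderm factors Sox17 (24.2 and 2.30 RPM) and Gata4 (5.97 and 0 RPM). Fgf5 (73.9 and 38.0 RPM) and Gata6 (5.28 and 4.67 RPM) were lower in Spen-/- cells too, and Afp had no read in either. Only the keratins among the 8 were higher. The paper also reports that Spen-/- cells showed more death than Wt cells during monolayer differentiation. The part of these measures and of cell death in the mitochondrial share was not tested. In bulk RNA, more mitochondrial RNA per cell and less nuclear RNA per cell also cannot be told apart.

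mt-Cytb changed its weight within the counted mitochondrial reads from library to library. It made up 35.5 to 77.5% of the counted mitochondrial mRNA reads. Reads from genes and parts of genes with nuclear copies are largely missing from that total. Its lowest values were 35.5 and 38.8% in Wt cells at day 3, where Spen-/- cells had 61.9 and 50.8%. Its highest were 75.2 and 77.5% in Spen-/- cells at day 7, where Wt cells had 61.9 and 71.2%. At day 0 the genotypes overlapped, with 58.9 and 62.2% in Wt and 52.9 and 64.8% in Spen-/- cells without doxycycline and 43.7 and 70.1% against 58.3 and 76.0% with it. The rRNAs went the other way, from 30.2 and 25.0% of mitochondrial reads in Wt cells at day 3 and up to 31.5% at day 0 down to 8.84 and 7.35% in Spen-/- cells at day 7. These shares sum to a whole, so a rise of one lowers the others, and they are given without a test.

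**Figure D4:**
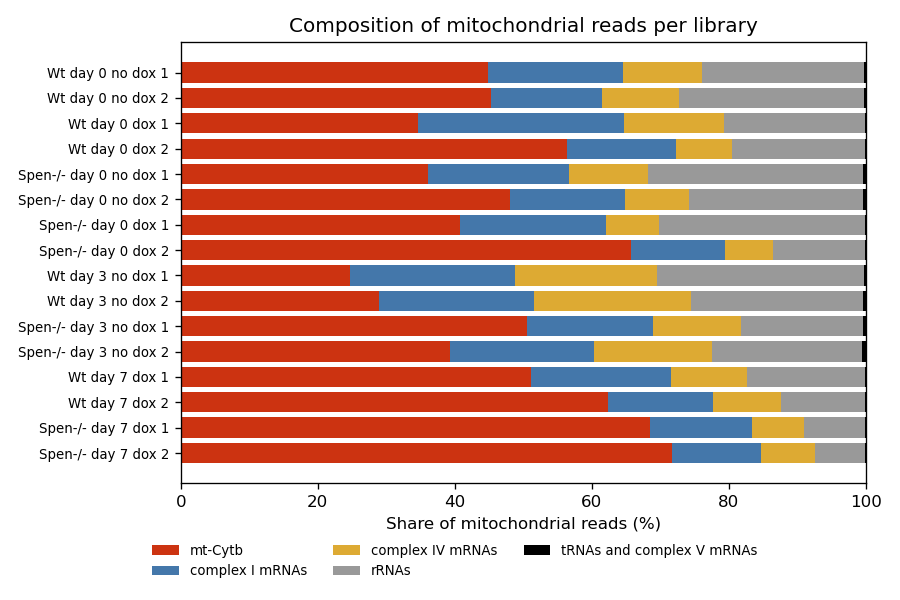
Mitochondrial reads of each library divided among mt-Cytb, the complex I and complex IV mRNAs, the rRNAs, and the tRNAs with the complex V mRNAs (percent of reads on the 37 genes). mt-Cytb ranges from 24.7% in Wt replicate 1 of day 3 to 71.7% in Spen-/- replicate 2 of day 7.

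For single genes, counts were tested with edgeR's quasi-likelihood test over all 18150 genes that passed a filter on low counts. Among the members 21 passed, 12 mRNAs and rRNAs and 9 tRNAs, and the other 16 had too few reads to be tested. In the comparison of Spen-/- with Wt cells at day 7, 1 of the 21 was called, mt-Cytb, which was higher in Spen-/- cells. The background was 7.11% of all genes called, 3.1% higher and the rest lower, so a share of 1 in 21 is near it. mt-Cytb had 8819 and 9825 RPM in the Wt libraries and 32881 and 17598 RPM in the Spen-/- libraries, without overlap. The log2 fold change was 1.63 ± 0.44 (SE), or 3.10-fold, with an adjusted p = 0.0462 in edgeR's test. This call was close to the threshold, and it was lost without Wt replicate 1 (adjusted p = 0.259), without Wt replicate 2 (0.158) and without Spen-/- replicate 1 (0.163) of day 7, where the log2 fold changes were 1.48, 1.74 and 1.16 in edgeR. With library sizes alone in place of TMM scaling, which shifted the median of all genes by -0.21, it was 1.44 with an adjusted p = 0.0629 in edgeR.

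The other abundant mitochondrial mRNAs had fold changes of the same sign at day 7 and did not pass the test. The 6 others of the 7 abundant mRNAs had log2 fold changes between 0.88 (mt-Co1, adjusted p = 0.0636 in edgeR) and 1.06 (mt-Nd4, adjusted p = 0.12 in edgeR). In mt-Co1 the values were 1921 and 1569 RPM in Wt and 3692 and 1906 RPM in Spen-/- libraries, so that the lower Spen-/- library fell inside the Wt range. On the TMM-scaled CPM of the test they were 1782 and 1524 against 3913 and 2169, without overlap. In mt-Nd1, a core subunit of complex I at its membrane base, they were 1405 and 1126 RPM against 3173 and 1283 RPM, again with overlap, and 1304 and 1094 against 3363 and 1460 TMM-scaled CPM, without it. Replicate 1 of Spen-/- was far above replicate 2 in both genes, and without it their log2 fold changes fell to 0.38 (mt-Co1) and 0.27 (mt-Nd1). The rRNAs had smaller values, 0.83 ± 0.58 for mt-Rnr1 and 0.45 ± 0.45 for mt-Rnr2 (SE), which were 0.06 and -0.23 without Spen-/- replicate 1. Over the 21 members the median log2 fold change was 1.01 and 20 were above 0, while the median of all genes tested was -0.14 and 41.8% were above 0. The 21 include mt-Co2, mt-Atp6 and mt-Atp8, whose levels cannot be read from their counts. Of the 21, 7 had an unadjusted p under 0.05, beside 23.5% of all genes. DESeq2 called 5 of the 21, mt-Cytb, mt-Co1, mt-Nd1, mt-Nd4 and mt-Nd5, beside 19.2% of all genes it tested, with log2 fold changes of 0.91 for mt-Co1 (DESeq2 adjusted p = 0.00740) and 1.04 for mt-Nd1 (DESeq2 adjusted p = 0.0160).

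**Figure D5:**
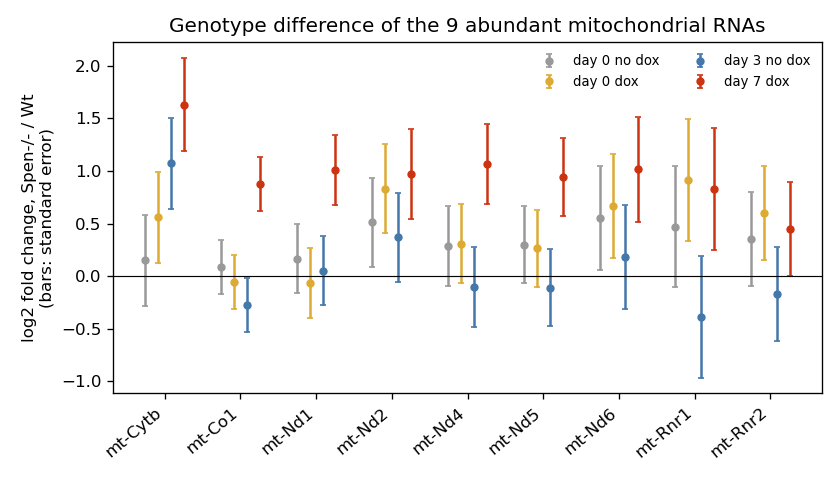
Log2 fold change of Spen-/- over Wt cells with its standard error from edgeR's fit of all libraries, for the 7 abundant mitochondrial mRNAs and the 2 rRNAs in 4 conditions. At day 7 (red) the values lie between 0.45 and 1.63, and in the other conditions between -0.39 and 1.07.

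In the other 3 comparisons of genotype no member passed the test. At day 0 without doxycycline 0 of 21 were called by edgeR or by DESeq2, none had an unadjusted p under 0.05, and 0.0% of all genes were called by edgeR, while DESeq2 called 38 genes in all. As at day 7, 20 of the 21 members were above 0 there, beside 45.3% of all genes. At day 0 with doxycycline and at day 3, 14 were above 0, beside 44.6% and 46.9% of all genes. Without the drug at day 0 the 7 abundant mRNAs lay between 0.09 and 0.55 on the log2 scale. At day 0 with doxycycline edgeR and DESeq2 again called 0 of 21, with none at an unadjusted p under 0.05 and 0.0826% of all genes called by edgeR. mt-Nd2, a complex I subunit, had the largest value among the abundant mRNAs, 0.83 ± 0.42 (SE), and mt-Nd1 the lowest, -0.07 ± 0.33. At day 3 edgeR and DESeq2 called 0 of 21 (0.0% of all genes in edgeR), and 1 had an unadjusted p under 0.05. It was mt-Cytb, with 1716 and 1770 RPM in Wt and 4429 and 2746 RPM in Spen-/- cells, which did not overlap, and a log2 fold change of 1.07 ± 0.44 (SE, edgeR adjusted p = 1). The other 6 abundant mRNAs lay between -0.27 (mt-Co1) and 0.37 (mt-Nd2) at day 3.

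Day 3 of differentiation had lower values than day 0 for most members, and none passed the test. Compared with day 0 without doxycycline, 16 of 21 members were below 0 in Wt cells (median -0.53) and 19 of 21 in Spen-/- cells (median -0.75), while the medians of all genes were 0.01 and 0.00. EdgeR called 0 of 21 in either genotype, beside 1.38% and 1.23% of all genes, with 3 and 2 members at an unadjusted p under 0.05. DESeq2 called 1 (mt-Cytb) and 2 (mt-Nd2 and mt-Rnr2), beside 8.28% and 7.27% of all genes it tested. In Wt cells mt-Cytb went from 3972 and 5466 RPM to 1716 and 1770 RPM, a log2 fold change of -1.60 ± 0.44 (SE, edgeR adjusted p = 0.111) without overlap. In Spen-/- cells, with 4246 and 6468 RPM at day 0, it was -0.67 ± 0.43 (edgeR adjusted p = 0.523). The difference between these effects was 0.92 ± 0.61 and was not past the threshold (edgeR adjusted p = 1). mt-Nd2 had similar values in both genotypes, -1.13 ± 0.43 in Wt and -1.27 ± 0.43 in Spen-/- cells (SE). Its reads were 185 and 246 RPM at day 0 and 114 and 105 RPM at day 3 in Wt cells, and 322 and 311 RPM against 159 and 119 RPM in Spen-/- cells. Of the 7 abundant mRNAs mt-Co1 moved least, with 0.10 ± 0.26 in Wt and -0.26 ± 0.26 in Spen-/- cells. mt-Rnr2 had -0.78 ± 0.45 and -1.30 ± 0.45 (SE).

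From day 0 to day 7 with doxycycline, 2 of 21 members rose in Spen-/- cells and none passed in Wt cells. In Spen-/- cells these were mt-Cytb, from 7574 and 9529 RPM to 32881 and 17598 RPM (log2 fold change 1.67 ± 0.44 (SE), edgeR adjusted p = 0.0387), and mt-Co1, from 1441 and 1003 RPM to 3692 and 1906 RPM (1.32 ± 0.26, edgeR adjusted p = 0.00987). Neither overlapped between days, and the background was 8.33% of all genes called, 3.36% higher. DESeq2 called 5 of 21, beside 21.0% of all genes it tested. Neither call held without Spen-/- day 7 replicate 1 (edgeR adjusted p = 0.148 and 0.0517) or without Spen-/- day 0 doxycycline replicate 2 (0.0912 and 0.0768). Without replicate 1 of that day 0 group the mt-Cytb call was lost as well (edgeR adjusted p = 0.186). The rRNAs had 0.05 ± 0.57 (mt-Rnr1) and -0.23 ± 0.45 (mt-Rnr2). In Wt cells mt-Cytb had 3272 and 8610 RPM at day 0 and 8819 and 9825 RPM at day 7 (0.60 ± 0.43, edgeR adjusted p = 0.538), and mt-Co1 1371 and 1239 RPM against 1921 and 1569 RPM (0.38 ± 0.26, edgeR adjusted p = 0.506). EdgeR and DESeq2 called 0 of 21 in Wt cells, none had an unadjusted p under 0.05, and 4.57% of all genes were called by edgeR.

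The difference between the genotypes in the effect of day 7 did not pass the test for any member. It was 1.08 ± 0.47 (SE) for mt-Nd1, 1.07 ± 0.61 for mt-Cytb and 0.94 ± 0.36 for mt-Co1, and the lowest adjusted p of a member was 0.275 in edgeR. In this comparison 2 members had an unadjusted p under 0.05, edgeR and DESeq2 called 0, and 2.01% of all genes were called by edgeR. The same differences for day 3 and for doxycycline at day 0 gave 0 calls by both tools, no member at an unadjusted p under 0.05, and 0.0% of all genes called by edgeR, while DESeq2 called 2 genes in all for day 3 and 65 for doxycycline. The effect of doxycycline itself at day 0 gave 0 of 21 calls in either genotype by both tools, beside 0.149% of all genes in Wt and 0.0716% in Spen-/- cells by edgeR, with 1 member at an unadjusted p under 0.05 in each. Median log2 fold changes of the members were 0.00 and -0.03. Comparisons with a group in common share its libraries.

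The nuclear genes that work with the mitochondrial ones were taken from 5 lists. Of 77 nuclear subunits of the respiratory chain and ATP synthase, 75 were tested, and 7 rose and none fell in Spen-/- against Wt cells at day 7. That is 9.33%, beside 7.11% of all genes called in either direction and 3.1% called higher. The median log2 fold change of the 75 subunits was 0.38 and 89.3% were above 0. Cox5a, a complex IV subunit, had 185 and 171 TMM-scaled CPM in Wt and 385 and 397 in Spen-/- cells (log2 fold change 1.14 ± 0.15 (SE), edgeR adjusted p = 0.00111). Cox7b, an X-linked gene of the same complex, rose by 1.40 ± 0.26 (edgeR adjusted p = 0.00640) and Uqcrq, of complex III like mt-Cytb, by 1.32 ± 0.25 (edgeR adjusted p = 0.00769). At day 0 with doxycycline Cox7b already had 200 and 140 CPM in Wt and 506 and 441 in Spen-/- cells. The paper reports that doxycycline silenced X-linked genes in Wt cells and that this was impaired in Spen-/- cells. The part of this in the 7 calls was not tested. In Cox5a both Spen-/- libraries lay above both Wt libraries, close to each other. Without Wt replicate 1 of day 7 the number called was 1, and without Wt replicate 2 it was 2.

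Genes named as proteins of the mitochondrial ribosome, which translates the 13 mRNAs, were counted in the same way. Of 77 tested 6 rose and none fell at day 7, which is 7.79%, with a median of 0.32. This was near the 7.11% of all genes called in either direction and above the 3.1% called higher. The called genes were led by Mrpl36 (1.25 ± 0.20 (SE), edgeR adjusted p = 0.00288), Mrpl15 (0.76 ± 0.14, edgeR adjusted p = 0.00748) and Mrps36 (1.46 ± 0.29, edgeR adjusted p = 0.0101). Mrps36 bears the name of a ribosomal protein but is not an established part of the mitochondrial ribosome. Without Wt replicate 1 of day 7 none was called and without Wt replicate 2 there were 2. Of 24 genes for transcription and replication of mitochondrial DNA edgeR called none and DESeq2 2 at day 7, 4 had an unadjusted p under 0.05, and the median was -0.29. Of 30 genes for the processing of mitochondrial RNA 1 rose and 2 fell, which is 10% beside the same 7.11%. Rexo2, an oligoribonuclease, rose by 0.92 ± 0.19 (SE, edgeR adjusted p = 0.0130). Supv3l1, a mitochondrial RNA helicase, fell by 2.28 on the log2 scale (SE 0.60, edgeR adjusted p = 0.0406), from 36.1 and 23.2 to 10.4 and 1.9 CPM. Ptcd1, a protein that binds mitochondrial RNA, had 20.5 and 19.9 CPM in Wt and 1.2 and 0.1 in Spen-/- cells (-4.98 ± 0.93 (SE), edgeR adjusted p = 0.00710). Of 12 regulators of mitochondrial biogenesis tested edgeR and DESeq2 called none, and none had an unadjusted p under 0.05. In the other 3 comparisons of genotype edgeR called none of the 218 list members tested. At day 0 with doxycycline 78 of the 218 had an unadjusted p under 0.05, beside 10.2% of all genes, and DESeq2 called 24, beside 3.12% of all genes it tested. The respiratory subunits there had a median of 0.54, with 88.0% above 0, and the ribosomal proteins a median of 0.33. At day 0 without the drug 4 and at day 3 6 of the 218 had an unadjusted p under 0.05, beside 4.56% and 3.22% of all genes, and DESeq2 called none.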

How the data were processed

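Gene counts of 16 RNA-seq libraries from Wt and Spen-/- ESCs were analysed. The authors prepared Smart-seq2 libraries from total RNA, sequenced 50-base single-end reads, aligned them with HISAT2 2.2.1 to mm10 with 129/Sv and Cast/Ei variants masked, divided them by allele with SNPsplit 0.3.4, processed them with SAMtools 1.10 and counted them with HTSeq 0.12.4. Reads that aligned to several places were not counted on a gene. The strand setting and any removal of duplicates are not given in the sources used here. Per the labels, group and replicate of every library were known, and none was left out. The files hold the authors' raw deposited counts per gene in 3 columns (129/Sv, Cast/Ei, unassigned), without normalization. Lines for reads on no gene, 31.6 to 45.4% of the reads in a file, stayed out of library sizes and tests.

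The 3 columns were summed. Genes with low counts were removed by filterByExpr, with a minimum count of 10, a minimum total of 15, a large.n of 10 and a min.prop of 0.7. The quasi-likelihood test of edgeR 4.0.16 (R 4.3.3) followed on TMM-scaled libraries, in 1 fit of 16 libraries and 8 group means, with Benjamini-Hochberg adjustment over 18150 genes and a threshold of 0.05. Standard errors were obtained from the fold change and its F statistic. DESeq2 1.42.0 was an alternative. Shares were compared by exact permutation of genotype within conditions in Python 3.11.15 (numpy 2.4.6, pandas 2.3.3). Alternatives were other scalings, no filter on low counts, a replicate block, fits of the compared libraries alone, unassigned reads alone, other denominators and each library left out. Gene positions and transcript sequences are those of GENCODE M21 (GRCm38). All 37 members matched by gene ID. Windows of 50 bases were compared with annotated transcripts only.

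All protein-coding and rRNA members were named, tRNAs with 10 or more reads in every library of a group or as counts, at most 3 called genes of a nuclear list per comparison, and at most 10 nuclear copies by reads. Gm10222 and Gm13341 were named in addition, for their place in the copied rows. The 6 tRNAs without reads were added after their values were seen. The members and lists were chosen with earlier results of these data known. On simulated counts for day 7 (17140 genes), 20.4% of genes changed 4-fold and 45.7% of those changed 16-fold were called, with 1 false call among 63. The changed genes were drawn at random from all genes past the filter, whatever their level. Those that the filter then removed from the simulated counts were left out of the rates. These rates therefore do not describe the abundant members.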

Additional observations from a re-analysis of the deposited data

How the results depend on the processing

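The higher mitochondrial share of Spen-/- cells kept its sign and an exact permutation p under 0.05 with reads on no gene in the denominator (0.39), with protein-coding genes alone (0.56), with unassigned reads alone (0.40), in percentage points (0.687) and with the replicate block (0.52, p = 0.0156). The same held with nuclear copies added (0.52), a setting also chosen after seeing the data. Leaving out each library gave 0.398 to 0.649. It was not past 0.05 without mt-Cytb (0.245) or without day 7 (0.335), both chosen after seeing the data. The difference in Cast share (exact permutation p = 0.827) turned positive without Spen-/- day 0 untreated replicate 2 (0.000864) and without Wt day 7 replicate 1 (0.000545), with a range of -0.00176 to 0.000864.

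For Spen-/- against Wt cells at day 7, 1 member was called in edgeR, against 5 in DESeq2, 8 without the filter on low counts, 2 with the replicate block, 0 with library size alone, 0 with the compared libraries alone, and 0 to 4 with a library left out. For day 7 against day 0 in Spen-/- cells the 2 calls became 5 in DESeq2, 6 without the filter, 3 with the replicate block, 0 with the compared libraries alone, and 0 to 5 with a library left out. Where edgeR called none, the fit without the filter called 1 for genotype at day 3, 1 for doxycycline in Spen-/- cells, 3 and 4 for day 3 in Wt and Spen-/- cells, 1 for day 7 in Wt cells and 2 for the genotype difference of day 7. DESeq2 called 1 and 2 for day 3 in Wt and Spen-/- cells. With a library left out the genotype difference of day 7 gave 0 to 2. The fold change of mt-Rnr2 between genotypes at day 7 was -0.23 without Spen-/- replicate 1, in a range up to 0.91.

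In the nuclear lists at day 7, DESeq2 called 16 respiratory subunits, 13 ribosomal proteins, 2 genes of mitochondrial DNA transcription and replication and 7 of RNA processing, against 7, 6, 0 and 3 in edgeR. With a day 7 library left out the counts were 1 to 6, 0 to 9, 0 to 3 and 1 to 5, and 0 to 2 for the biogenesis regulators. The cause of these shifts was not tested.

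Replicate numbers were checked for pairing by correlating differences between replicates across groups over 10247 genes. Their median was 0.0406 among 28 and they ranged from -0.180 to 0.314, with 7 above 0.1 and 4 below -0.1, so the numbers were not shown to pair libraries. The block changed no other count of calls by over 1.5 times.

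Groups held 2 libraries, and replicates were as far apart as 4.81 and 2.45% in the share of mitochondrial reads at day 7 in Spen-/- cells. Levels of the 6 protein-coding genes nearly without reads were not measured at this depth and counting rule.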
